A study of Mus musculus with 8 samples.

Results

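The 10 genes described here encode proteins that fold, hydroxylate, trim and crosslink fibrillar collagen: *Serpinh1*, *P4ha1*, *P4ha2*, *Plod1*, *Plod2*, *Pcolce*, *Bmp1*, *Lox*, *Loxl1* and *Loxl2*. They were chosen by name for their function, not by a threshold on their levels, but with earlier results of these data known. All 10 are among the 16686 genes of the deposited table, and all 10 passed the filter on low counts that left 12542 genes for testing. RNA of whole tibialis anterior (TA) muscle, a fast-twitch muscle of the lower leg, was sequenced with a single library per mouse in 2 groups of 4 male mice. Both groups have the FVBN background and an age label of 22 months. WT Old mice carry intact *Mybpc2*, the gene of fast skeletal myosin binding protein-C, a thick filament protein of the sarcomere. In C2-/- Old mice, a Neo cassette with LoxP sites on either side takes the place of exons 2 to 22 of this gene. The deletion is present in every cell of the mouse from conception, so the 22 months of life without the protein and the state of the aged muscle are measured together. The study asked which RNAs differ in aged fast muscle that lacks this protein.

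Fibrillar collagens are made as procollagen chains in the endoplasmic reticulum, where prolines and lysines are hydroxylated before the chains wind into a triple helix. A collagen-specific chaperone escorts the helix to the Golgi. Outside the cell, proteinases remove the terminal propeptides, and lysyl oxidases then convert lysines and hydroxylysines into the aldehydes that crosslink the fibrils. In skeletal muscle these proteins come mostly from fibroblasts and their progenitors in the connective tissue between the fibres, and crosslinked collagen is known to contribute to the passive stiffness of old muscle.

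*Serpinh1*, the gene of the collagen chaperone, and *Pcolce*, the gene of an enhancer of propeptide removal, had higher RNA levels in every C2-/- Old mouse than in any WT Old mouse, by 1.47-fold and 1.66-fold. *Bmp1* and *Loxl1* were higher by 1.33-fold and 1.23-fold with overlapping groups. The hydroxylase genes *P4ha1*, *P4ha2* and *Plod1* differed by at most 1.10-fold, with unadjusted p-values of 0.463 to 0.946. *Lox*, the founding member of the lysyl oxidase family, was the only one of the crosslinking genes with a lower mean in C2-/- Old, and its groups overlapped. In all, 8 of the 10 genes had a higher fitted level in C2-/- Old, as did 45.8% of all tested genes. The median log2 fold change of the 10 was 0.36, beside -0.02 over all tested genes. By edgeR's quasi-likelihood test, 4 of the 10 were higher at an unadjusted p under 0.05, a threshold that 3.38% of all tested genes passed in this direction. None of the 10 was lower at that threshold, which 1.91% of all tested genes passed. No gene of the 10 had an adjusted p under 0.05 (Benjamini-Hochberg over all tested genes), a level that 0.0319% of the tested genes reached. The CPM of the 2 groups did not overlap, with C2-/- Old higher, for 2 of the 10 genes and for 2.03% of all tested genes. CPM are counts scaled to the total of the tested genes in each library times a normalization factor (TMM). Overlap by plain library totals was not looked at and can differ. The differences between the 10 genes were not tested. In RNA of whole muscle, more cells of a type and more RNA per cell cannot be told apart.

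**Figure D1:**
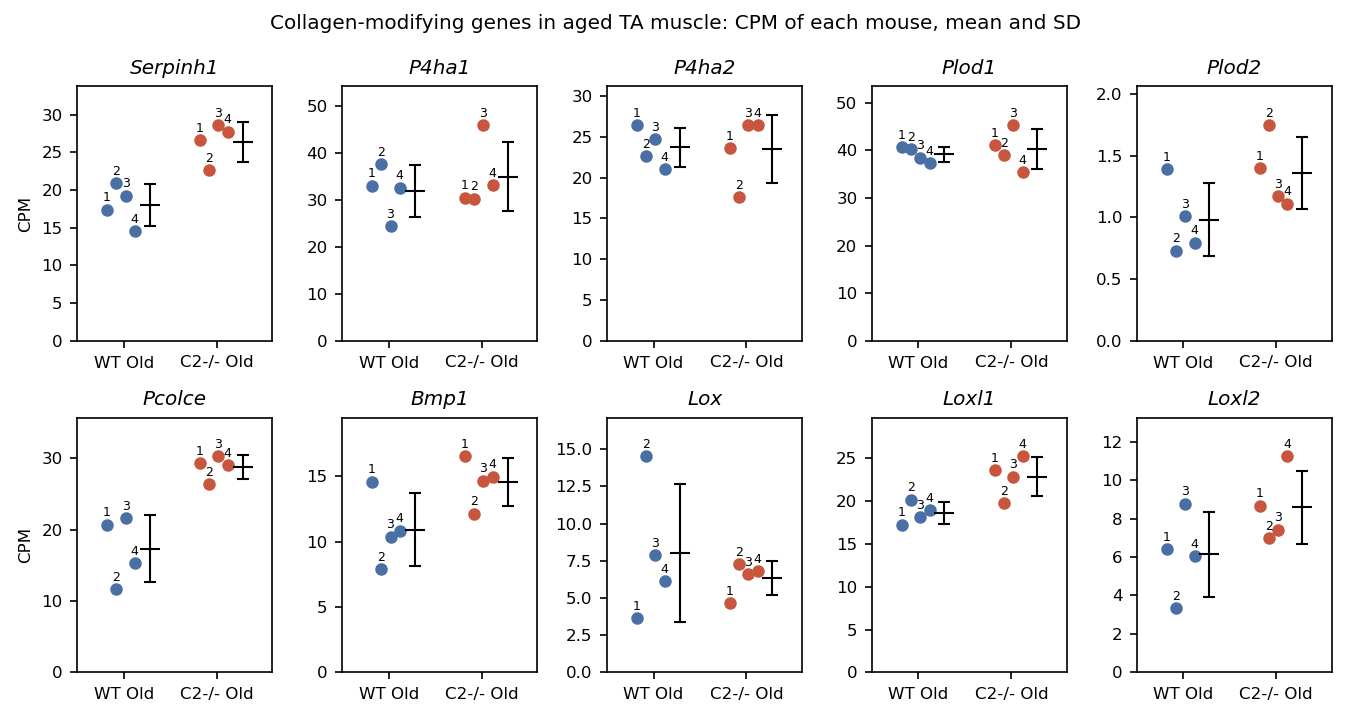
CPM (vertical axis, from 0) of the 10 genes in each WT Old mouse (blue) and C2-/- Old mouse (red), with the replicate number above each point and the mean and SD of 4 mice as black bars. The 4 C2-/- Old mice lie above all 4 WT Old mice for *Serpinh1* and *Pcolce*, the groups overlap for the other 8 genes, and WT Old replicate 2 lies far above the rest for *Lox*.

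The libraries held between 25425993 and 29747692 counts, and 3 counts, the smallest level taken as shown, equal 0.101 to 0.118 CPM, which covers counting error only. The targeted gene *Mybpc2* stood at 4964 to 7392 CPM in WT Old and at 3.85 to 38.3 CPM in C2-/- Old, where replicate 3 gave the highest value. Markers of skeletal muscle fibres (10 genes such as *Acta1* and *Atp2a1*) summed to between 208188 and 277557 CPM in WT Old and between 218184 and 240870 CPM in C2-/- Old. Immediate early genes, which respond within minutes to handling of a tissue, were high in 3 mice: *Fos* was at 70.9 and 245 CPM in WT Old replicates 2 and 4 and at 123 CPM in C2-/- Old replicate 2. It lay between 0.901 and 7.80 CPM in the other 5 mice, so results are also given for these 5 mice alone, a choice made after the data had been seen.

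Promoter sequences of RefSeq were used for 5 of the 10 genes (*Serpinh1*, *Pcolce*, *P4ha1*, *P4ha2* and *Plod1*). The 250 bases before the start of *Serpinh1*, *P4ha2* and *Plod1* are shown, since the deposited table and RefSeq place the start of these 3 genes at the same base and since they set *Serpinh1*, whose groups did not overlap, beside 2 hydroxylase genes whose groups did. The sequences are those of build GRCm38.p6, 5′ to 3′ on the strand of the gene, at chr7:99353240-99353489 (minus strand), chr11:54100674-54100923 (plus strand) and chr4:147936777-147937026 (minus strand). Capitals mark matches on either strand to ACGTG or GCGTG, the core of the hypoxia response element, and to GGGCGG, the Sp1 box.
*Serpinh1*: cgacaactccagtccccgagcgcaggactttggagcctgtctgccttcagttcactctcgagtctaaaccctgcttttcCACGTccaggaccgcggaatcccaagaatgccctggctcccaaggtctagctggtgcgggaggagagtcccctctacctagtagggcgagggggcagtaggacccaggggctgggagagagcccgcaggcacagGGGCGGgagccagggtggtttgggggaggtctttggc
*P4ha2*: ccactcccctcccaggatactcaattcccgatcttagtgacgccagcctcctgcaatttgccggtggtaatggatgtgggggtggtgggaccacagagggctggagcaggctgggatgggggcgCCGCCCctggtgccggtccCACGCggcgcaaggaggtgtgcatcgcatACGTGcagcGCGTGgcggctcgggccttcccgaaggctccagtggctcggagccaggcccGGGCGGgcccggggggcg
*Plod1*: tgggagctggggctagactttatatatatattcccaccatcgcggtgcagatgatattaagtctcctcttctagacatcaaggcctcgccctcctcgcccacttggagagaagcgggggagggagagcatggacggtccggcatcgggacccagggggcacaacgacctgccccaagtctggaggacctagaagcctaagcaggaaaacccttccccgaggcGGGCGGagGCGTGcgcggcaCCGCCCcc
All 5 promoters held an Sp1 box, which 32.7% of 32851 promoter windows of the same length hold. The bases G and C made up 58.8% (*Pcolce*) to 70.0% (*P4ha2*) of the 5 windows. The part of base content in the matches was not tested. A GCGTG core was present in 4 of the 5 and in 28.2% of all windows, and an ACGTG core in 3 of the 5 and in 16.6% of all windows. *P4ha2* held 3 cores in all, between 65 and 107 bases before its start, and *Serpinh1* held 1, at 167 to 171 bases. *P4ha1* held 3 cores, *Pcolce* and *Plod1* held 1 each. The CCAAT box (33.9% of windows), the heat shock element GAANNTTC (6.69%) and the ER stress response element (0.113%) were in none of the 5. A match shows neither binding nor use of a site, and the windows of *Plod2*, *Bmp1*, *Lox*, *Loxl1* and *Loxl2* were not analysed here.

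*Serpinh1* (gene ID 12406, chromosome 7 from 99341676 to 99353239 on GRCm38.p6, minus strand) encodes Hsp47, a chaperone of the endoplasmic reticulum that binds the folded procollagen helix. In replicates 1, 2, 3 and 4 of WT Old it was at 17.4, 20.9, 19.3 and 14.5 CPM. The same replicate numbers of C2-/- Old, which name other mice, gave 26.6, 22.6, 28.6 and 27.7 CPM. The lowest knockout mouse, replicate 2, still lay above the highest WT Old mouse, also replicate 2. The means were 18.01 ± 2.73 and 26.4 ± 2.65 CPM (SD, n = 4 each), which gave a log2 fold change of 0.55 (SE 0.14, 95% interval 0.24 to 0.86). The unadjusted p was 0.0024 and the adjusted p was 0.571 by edgeR's quasi-likelihood test. Among the 5 mice with low *Fos*, it was at 17.4 to 19.3 CPM in WT Old and at 26.6 to 28.6 CPM in C2-/- Old. Leaving out each mouse in turn gave log2 fold changes from 0.47 to 0.64, each with an unadjusted p of at most 0.0086.

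Prolyl 4-hydroxylases make the 4-hydroxyproline that keeps the triple helix stable at body temperature, and *P4ha1* and *P4ha2* encode alternative catalytic subunits that pair with the product of *P4hb*. *P4ha1* (gene ID 18451, chromosome 10 from 59323245 to 59373304, plus strand) was at 33.1, 37.6, 24.5 and 32.6 CPM in WT Old and at 30.5, 30.4, 46.0 and 33.2 CPM in C2-/- Old. One knockout mouse, replicate 3, stood above all others, and the remaining 7 were intermixed. The log2 fold change of 0.13 (standard error 0.17, unadjusted p = 0.463 and adjusted p = 0.976 in edgeR) became -0.03 without that mouse. The interval given for *P4ha1* lies inside an overly long one that the table gives for *Egr2*, and whether counting used the strand is not stated.

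*P4ha2* (gene ID 18452, chromosome 11 from 54100924 to 54131668, plus strand) was at 26.4, 22.6, 24.7 and 21.1 CPM in WT Old and at 23.6, 17.6, 26.5 and 26.5 CPM in C2-/- Old. The groups overlapped throughout, and the lowest mouse of each genotype was one with high *Fos*. The means were 23.7 ± 2.35 and 23.5 ± 4.18 CPM (SD, n = 4 each), and the 95% interval of the log2 fold change of -0.01 ran from -0.34 to 0.32 (unadjusted p = 0.946, adjusted p = 0.998 in edgeR). The partner subunit gene *P4hb*, which is shared with other protein disulphide isomerase functions, had a mean of 160 CPM in both groups with a log2 fold change of -0.00 (standard error 0.14).

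Lysyl hydroxylases set up the hydroxylysines that carry sugars and form the more stable crosslinks. *Plod1* (gene ID 18822, chromosome 4 from 147909657 to 147936776, minus strand), whose product modifies mainly lysines of the helix, was at 40.6, 40.2, 38.5 and 37.3 CPM in WT Old. It was at 41.1, 39.0, 45.3 and 35.4 CPM in C2-/- Old, so that the knockout mice spread on both sides of the WT Old range. The log2 fold change was 0.04 (standard error 0.11, 95% interval -0.21 to 0.28, unadjusted p = 0.735, adjusted p = 0.989), and it was -0.03 without C2-/- Old replicate 3. The table's interval for *Plod1* lies within the long intervals of 3 other entries.

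*Plod2* (gene ID 26432, chromosome 9 from 92542223 to 92613539, plus strand) encodes the lysyl hydroxylase of the telopeptides, which is linked to fibrotic crosslinks. It had the lowest level of the 10, with 20 to 47 counts per mouse. Its values were 1.39, 0.730, 1.01 and 0.796 CPM in WT Old and 1.401, 1.75, 1.17 and 1.11 CPM in C2-/- Old, where WT Old replicate 1 lay within the knockout range. The log2 fold change was 0.47 with a standard error of 0.30 (95% interval -0.20 to 1.13, unadjusted p = 0.148, adjusted p = 0.968), and it was 0.04 among the 5 mice with low *Fos*. At this depth, neither no difference nor a doubling of *Plod2* lay outside the interval.

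Removal of the C-terminal propeptide starts fibril formation outside the cell. *Bmp1* encodes the proteinase, and *Pcolce* encodes a secreted glycoprotein that binds the propeptide and speeds its cleavage. *Pcolce* (gene ID 18542, chromosome 5 from 137605105 to 137611764, minus strand) was at 20.7, 11.6, 21.6 and 15.3 CPM in WT Old. In C2-/- Old it was at 29.3, 26.4, 30.3 and 29.1 CPM, and the knockout mice lay close together above a wide WT Old range. The means were 17.3 ± 4.70 and 28.8 ± 1.68 CPM (SD, n = 4 each), with a log2 fold change of 0.73 (standard error 0.18, 95% interval 0.32 to 1.14, unadjusted p = 0.0025, adjusted p = 0.571 in edgeR). The 2 WT Old mice with high *Fos* were the lowest of their group. Among the 5 mice with low *Fos*, the values were 20.7 to 21.6 against 29.1 to 30.3 CPM, still without overlap, and a log2 fold change of 0.49 was fitted with an unadjusted p of 0.0068 in edgeR.

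*Bmp1* (gene ID 12153, chromosome 14 from 70474258 to 70520713, minus strand) was at 14.6, 7.88, 10.4 and 10.8 CPM in WT Old and at 16.5, 12.1, 14.7 and 14.9 CPM in C2-/- Old. The overlap came from WT Old replicate 1, which lay above C2-/- Old replicate 2. The log2 fold change was 0.42 (standard error 0.19, unadjusted p = 0.0480, adjusted p = 0.935 in edgeR). This p was 0.0502 with another library scaling (RLE) and 0.142 among the 5 mice with low *Fos*. It also exceeded 0.05 without WT Old replicates 2, 3 or 4 or C2-/- Old replicates 1, 3 or 4, with unadjusted p-values of 0.0928, 0.0924, 0.0813, 0.119, 0.0828 and 0.0901 in edgeR.

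Of the crosslinking enzymes, *Loxl1* (gene ID 16949, chromosome 9 from 58287723 to 58313212, minus strand) encodes the lysyl oxidase best known for elastic fibres. It was at 17.2, 20.1, 18.1 and 18.9 CPM in WT Old and at 23.6, 19.7, 22.8 and 25.2 CPM in C2-/- Old. Only C2-/- Old replicate 2 and WT Old replicate 2 were in reverse order. The log2 fold change was 0.30 (standard error 0.11, 95% interval 0.04 to 0.55, unadjusted p = 0.0263, adjusted p = 0.882 in edgeR). The unadjusted p rose to 0.0658, 0.0534 and 0.0775 without WT Old replicate 1 and C2-/- Old replicates 1 and 4. It was 0.0140 among the 5 mice with low *Fos*, of which the 3 knockout mice lay above both WT Old mice. The interval that the table gives for *Loxl1* overlaps that of *Pml* on the same strand.

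*Loxl2* (gene ID 94352, chromosome 14 from 69608692 to 69695834, plus strand) encodes a lysyl oxidase that acts on basement membrane collagen IV. It was at 6.40, 3.36, 8.78 and 6.04 CPM in WT Old and at 8.67, 6.99, 7.41 and 11.2 CPM in C2-/- Old. WT Old replicate 3 was above 3 of the knockout mice, and the log2 fold change of 0.48 had a standard error of 0.27 (95% interval -0.11 to 1.08, unadjusted p = 0.101, adjusted p = 0.968). It was 0.29 without WT Old replicate 2 and 0.27 among the 5 mice with low *Fos*, and 0.71 without WT Old replicate 3, where the unadjusted p was 0.0225 in edgeR.

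*Lox* (gene ID 16948, chromosome 18, minus strand) encodes the enzyme that crosslinks collagens I and III and elastin. Its values were 3.66, 14.5, 7.88 and 6.12 CPM in WT Old and 4.66, 7.25, 6.60 and 6.79 CPM in C2-/- Old. The knockout mice lay inside the WT Old range, which was set at both ends by single mice, replicates 1 and 2. The log2 fold change of -0.35 (standard error 0.35, 95% interval -1.13 to 0.43, unadjusted p = 0.346, adjusted p = 0.968 in edgeR) turned to 0.11 without WT Old replicate 2.

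Scaled by transcript length in the deposited TPM (transcript shares of each library), the levels of the 10 genes can be set beside each other. In WT Old, *Plod1*, *Pcolce*, *P4ha2*, *P4ha1* and *Serpinh1* were the most abundant, with mean TPM of 21.7, 21.1, 19.0, 17.4 and 14.6, and each overlapped its neighbour in this order over the 4 mice. *Loxl1* came next at 10.03 ± 0.65 TPM, below every *Serpinh1* value, then *Bmp1* at 4.71, *Lox* at 2.95 and *Loxl2* at 2.12, whose ranges ran into each other. *Plod2* was below all of these at 0.33 to 0.68 TPM. In C2-/- Old, *Pcolce* stood first at 36.3 ± 1.54 TPM, clear of *Plod1*, whose highest mouse had 26.1 TPM. *Serpinh1*, the fifth in WT Old, was the third here at 22.6 ± 2.04 TPM, within the ranges of *Plod1* and *P4ha1*. In TPM, the groups of *Loxl1* (9.20 to 10.8 against 11.7 to 14.7) and *Bmp1* (3.15 to 5.96 against 6.04 to 7.20) did not overlap either, while they did in CPM. So 4 of the 10 genes did not overlap in TPM, with C2-/- Old higher, as did 2.38% of all tested genes. The median log2 ratio of the group means over all tested genes was 0.05 in TPM and -0.02 in CPM.

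**Figure D2:**
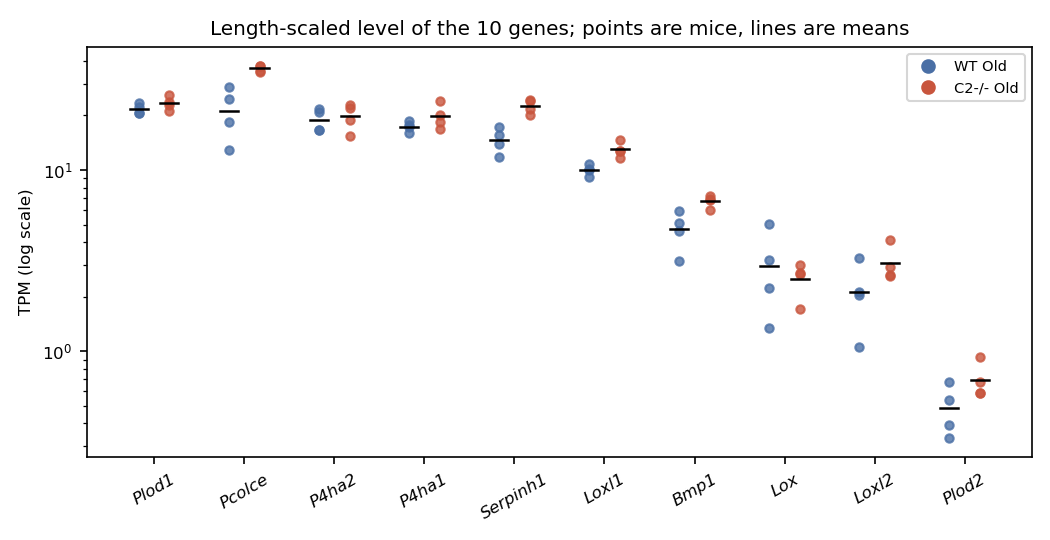
TPM (vertical log axis) of the 10 genes, in the order of their WT Old means, with a point for each mouse (blue for WT Old, red for C2-/- Old) and a black line at the mean of 4 mice. The genes span from below 1 TPM for *Plod2* to 36.3 TPM for *Pcolce* in C2-/- Old.

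How the RNA of paralogs was divided is a question of levels within a mouse. *P4ha1* made up 47.9% ± 4.98 of the summed TPM of *P4ha1* and *P4ha2* in WT Old and 50.2% ± 3.71 in C2-/- Old (SD, n = 4 each). *Plod2* made up 2.16% ± 0.60 of *Plod1* and *Plod2* in WT Old and 2.90% ± 0.65 in C2-/- Old. *Loxl1* held the largest part of the 3 lysyl oxidase genes, with 66.9% ± 5.35 and 70.0% ± 2.61, while *Lox* held 19.0% ± 8.85 and 13.6% ± 3.19. The groups overlapped for each of these shares.

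The wider machinery of collagen biosynthesis was read from a list of 34 further genes, of which 32 were in the table and 29 were tested (*P4ha3*, *Adamts3* and *Tll2* were too low). Of the 29, 21 had a higher fitted level in C2-/- Old and 8 a lower one, and the median log2 fold change was 0.14. Over all tested genes, 45.8% had a higher fitted level.  At an unadjusted p under 0.05 in edgeR, 6 of the 29 were higher and 0 lower, and none had an adjusted p under 0.05. Over all tested genes, 3.38% were higher and 1.91% lower at the unadjusted threshold, and 0.0319% passed the adjusted one. *Fkbp10*, a prolyl isomerase that works with Hsp47 and with telopeptide lysine hydroxylation, was at 2.01, 1.86, 3.96 and 3.26 CPM in WT Old and at 6.43, 5.50, 4.54 and 6.10 CPM in C2-/- Old. Its groups did not overlap, with a log2 fold change of 1.03 (standard error 0.26, unadjusted p = 0.0024, adjusted p = 0.571 in edgeR).

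The other genes of the list at this threshold sit at several steps of the pathway. *P3h3*, a prolyl 3-hydroxylase family member, had a log2 fold change of 0.49 without overlap of the groups, and *Crtap*, the helper protein of prolyl 3-hydroxylation, one of 0.37. *Sec24d*, a coat subunit of the vesicles that export procollagen, differed by 0.54, and *Creb3l1*, a transcription factor of the endoplasmic reticulum that acts on collagen genes, by 0.61. *Sparc*, an extracellular collagen-binding protein, differed by 0.34 at a level of 118 ± 12.9 against 150 ± 20.0 CPM (SD, n = 4 each). Close to the threshold were *Loxl3* and *Loxl4*, lysyl oxidases, with log2 fold changes of 0.50 and 0.80 and adjusted p-values of 0.943 in edgeR. So were the procollagen N-proteinase gene *Adamts14* (1.11) and *Pcolce2*, the paralog of *Pcolce* (0.41), each with an adjusted p of 0.968 in edgeR. Some other genes of the list, named once their values were known, lay near 0. *Ppib*, a prolyl isomerase, had a log2 fold change of -0.03, *P3h1*, the catalytic partner of *Crtap*, 0.08, and *Plod3*, the third lysyl hydroxylase, 0.03. Their unadjusted p-values were 0.491 to 0.859 in edgeR, and further genes of the list lay less near 0. The table's intervals of *Fkbp10*, *P3h3*, *Loxl3*, *Loxl4* and *Adamts14* each overlap that of another gene. Among the 5 mice with low *Fos*, 1 of the list was higher at an unadjusted p under 0.05, and between 2 and 8 were when each mouse was left out. The count was 3, 2, 3 and 2 without WT Old replicates 2 and 4 and C2-/- Old replicates 1 and 4.

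**Figure D3:**
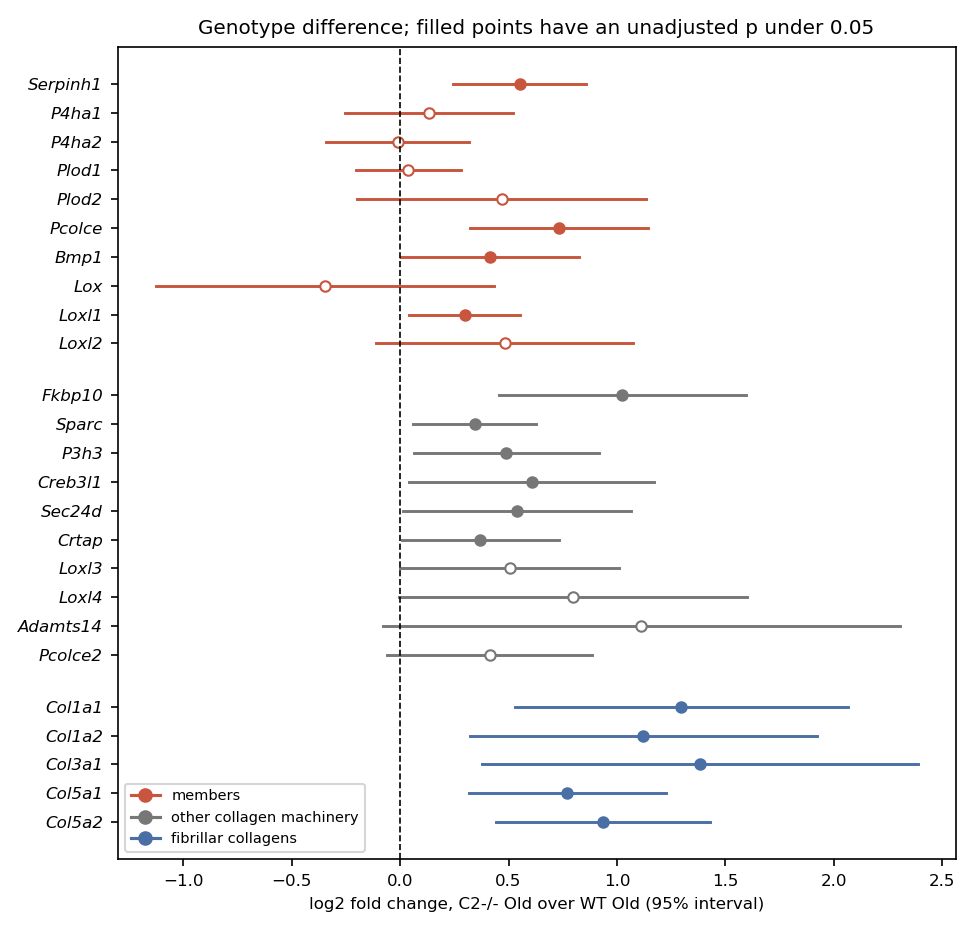
Fitted log2 fold change of C2-/- Old over WT Old (horizontal axis) with its 95% interval for the 10 genes (red), the 10 further machinery genes with the smallest p (grey) and 5 fibrillar collagens (blue), where filled points have an unadjusted p under 0.05. *Serpinh1*, *Pcolce*, *Bmp1* and *Loxl1* are filled among the 10, and the 5 collagens lie further to the right than most of the machinery. The grey genes were picked by their p, so their position to the right of 0 was favoured by the choice.

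The fibrillar collagens, the substrates of this machinery, were read beside the 10 genes. Of 10 tested fibrillar collagen genes, 8 were higher in C2-/- Old, 5 of them at an unadjusted p under 0.05, and the median log2 fold change was 0.72. These were *Col1a1*, *Col1a2* and *Col3a1*, the chains of collagens I and III, with 1.30, 1.12 and 1.38, and *Col5a1* and *Col5a2*, chains of the fibril-nucleating collagen V, with 0.77 and 0.93. Their adjusted p-values ran from 0.571 to 0.755 in edgeR. Over all tested genes, 45.8% had a higher fitted level, and 3.38% were higher at an unadjusted p under 0.05. The table places *Col3a1* and *Col5a2* inside an overly long interval of *Rcor3*. The summed level of *Col1a1*, *Col1a2* and *Col3a1* was 112, 50.8, 206 and 170 CPM in WT Old and 244, 242, 438 and 369 CPM in C2-/- Old. All knockout mice were above all WT Old mice, and WT Old replicate 2 had the lowest sum of the 8.

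Set against this sum, every one of the 10 genes had a lower mean ratio in C2-/- Old. The difference in mean log2 ratio ran from -0.62 for *Pcolce* and -0.84 for *Serpinh1* to -1.42 for *P4ha2* and -1.58 for *Lox*. For *P4ha2*, there were 120 to 445 counts for each 1000 collagen counts in WT Old and 60.4 to 96.7 in C2-/- Old. For *Lox*, there were 32.6 to 286 in WT Old and 15.1 to 29.98 in C2-/- Old. The ratios of *P4ha2*, *Plod1*, *Lox* and *Loxl2* did not overlap between the groups, though for *Loxl2* the gap was narrow, with 35.5 as the limit of both. The ratios of the other 6 genes overlapped, those of *Serpinh1* running from 85.4 to 411 in WT Old and from 65.3 to 109 in C2-/- Old. Since the collagens themselves were higher in each knockout mouse, a gene of equal level has a lower ratio. Its ratio can then separate the groups by division alone. The share of all tested genes whose ratio does so was not counted, so the lack of overlap sets none of these genes apart. Without WT Old replicate 2, the mouse of the lowest collagen sum, the difference was -0.35 for *Serpinh1*, -0.39 for *Pcolce*, -0.65 for *Loxl1*, -0.77 for *P4ha1* and -0.83 for *Lox*. It stayed negative for all 10 genes when any single mouse was left out.

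**Figure D4:**
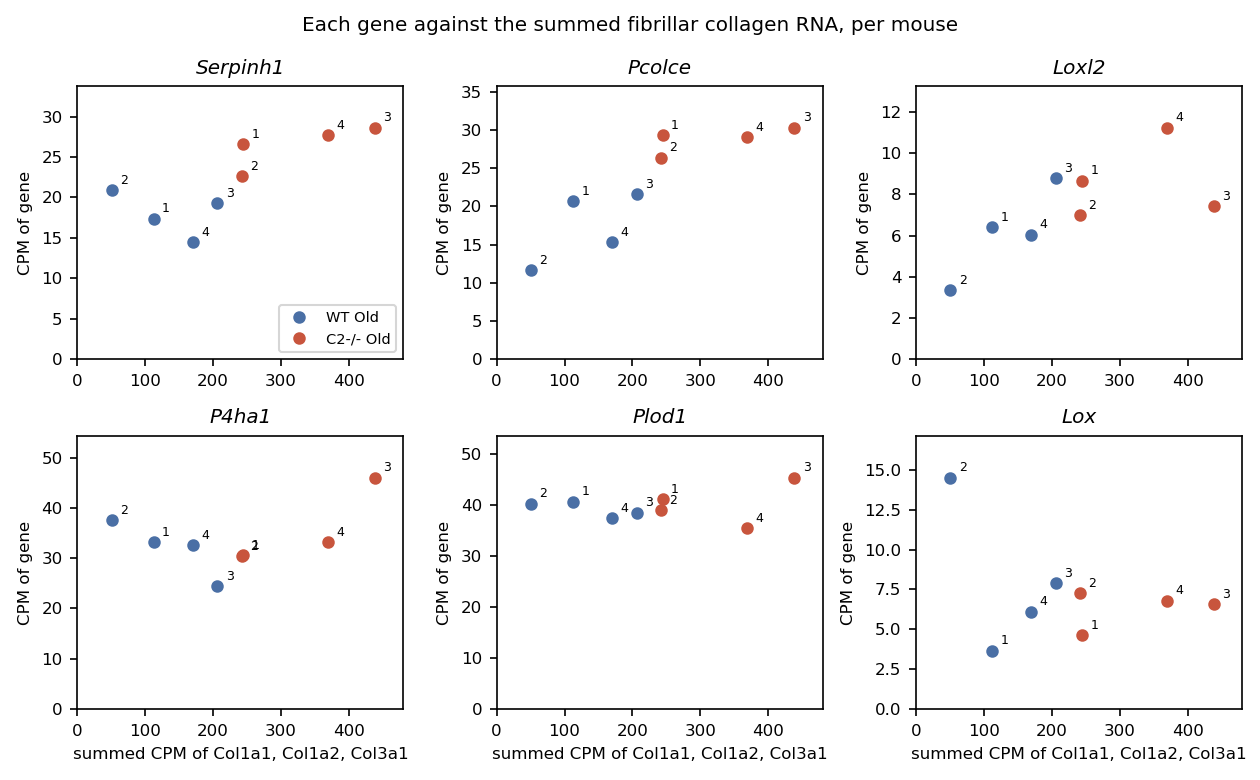
CPM of *Serpinh1*, *Pcolce*, *Loxl2*, *P4ha1*, *Plod1* and *Lox* (vertical axes, from 0) against the summed CPM of *Col1a1*, *Col1a2* and *Col3a1* (horizontal axes), with a numbered point for each WT Old mouse (blue) and C2-/- Old mouse (red). The collagen sum spans 50.8 to 438 CPM while *Plod1* stays between 35.4 and 45.3 CPM, and the points of C2-/- Old replicates 1 and 2 lie on top of each other for *P4ha1*.

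Genes of pathways known to act on the 10 were read in the same way. Over all tested genes, 45.8% had a higher fitted level in C2-/- Old, and 3.38% were higher at an unadjusted p under 0.05 in edgeR. Of 10 tested genes that respond to TGF-beta, a growth factor that induces collagen and lysyl oxidase genes, 6 were higher and 4 lower, and 3 were higher at an unadjusted p under 0.05. These were *Fn1* (fibronectin), *Postn* (periostin) and *Tgfbi*, extracellular proteins, with log2 fold changes of 1.205, 0.95 and 0.44 (adjusted p of at least 0.766 in edgeR). Of 12 genes induced by hypoxia, which also acts on *P4ha1*, *P4ha2*, *Plod2* and *Lox*, 2 were higher and 10 lower, with a median log2 fold change of -0.10. Only the carbonic anhydrase gene *Car9* passed the unadjusted threshold, upwards, at no more than 1.31 CPM in any mouse. Of 10 heat shock genes 5 were higher and 5 lower, none of them at an unadjusted p under 0.05, and of 12 chaperone and stress genes of the endoplasmic reticulum 3 were higher and 9 lower. Of these, *Pdia4*, a disulphide isomerase, passed the unadjusted threshold with a log2 fold change of 0.39.

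Lists of cell type markers were read in the same way, with no test over a list. The shares over all tested genes were 45.8% with a higher fitted level and 3.38% higher at an unadjusted p under 0.05. The CPM of 2.03% did not overlap, with C2-/- Old higher. All 10 markers of fibroblasts and fibro-adipogenic progenitors had a higher fitted level in C2-/- Old, 3 of them at an unadjusted p under 0.05. These 3 were *Gsn*, *Dpt* and *Dcn*, with log2 fold changes of 0.45, 0.48 and 0.32 and no overlap of the groups. The summed level of the 10 was 759 to 888 CPM in WT Old and 944 to 1115 CPM in C2-/- Old. All 6 markers of smooth muscle and pericytes had a higher fitted level, 2 of them at that threshold (*Cspg4* and *Pdgfrb*, with 0.70 and 0.33), and their sums were 233 to 373 and 358 to 427 CPM. Of 9 tested tendon markers 7 had a higher fitted level, 2 of them at that threshold (*Cilp2* and *Tnmd*, with 1.69 and 1.43), with sums of 108 to 658 and 112 to 613 CPM. This list holds *Egr1*, which is also an immediate early gene, and the other 9 listed genes, also those too low to test, summed to 59.7 to 197 CPM in WT Old and 100 to 277 CPM in C2-/- Old. The lowest adjusted p among the genes named from these 3 lists was 0.640 in edgeR, for *Gsn*. The part of these cells in the results on the 10 genes was not tested.

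No other marker list held a gene with an unadjusted p under 0.05. Macrophage markers (5 higher, 2 lower) summed to 18.9 to 44.0 CPM in WT Old and 31.0 to 50.2 CPM in C2-/- Old, and adipocyte markers (3 higher, 1 lower) to 2.39 to 9.56 and 4.77 to 15.8 CPM. Endothelial markers (3 higher, 3 lower) summed to 225 to 330 and 234 to 307 CPM, and Schwann cell markers (1 higher, 4 lower) to 51.1 to 107 and 44.5 to 80.9 CPM. Muscle fibre markers were split into 3 higher and 7 lower, and all 6 immediate early genes had a lower fitted level in C2-/- Old, with sums of 51.4 to 1227 and 34.9 to 762 CPM. None of the markers was at 0 in all mice.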

How the data were processed

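TA muscle RNA of 4 WT Old and 4 C2-/- Old mice was enriched with oligo(dT) and sequenced on DNA nanoballs. The authors deposited 1 table with expected counts and TPM of each gene per mouse. The study's methods name HISAT for alignment to GRCm38.p6 and featureCounts for counting, while the submitters' processing notes list HISAT, Bowtie2 and DESeq2. Between 5.5% and 6.53% of the count values were not whole, so these deposited values are taken as estimated counts and were rounded. The 8 columns of FPKM, the group averages and the authors' log2 fold changes, p-values and q-values in the table were not used. Gene coordinates are those of the table, and promoters those of RefSeq on the same build. Of the gene IDs 16586 matched RefSeq, and 5864 had both ends within 1 base.

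For CPM, counts were divided by the total of the tested genes in each library times its TMM factor. Whether the groups of a gene overlap by plain library totals was not looked at. The genotypes were compared with edgeR 4.0.16 in R 4.3.3 (quasi-likelihood test, TMM factors, default filter, Benjamini-Hochberg adjustment). The study's methods name limma and voom, which was run as an alternative with limma 3.58.1, as was DESeq2 1.42.0. Standard errors and 95% intervals come from the same fit. The script was tested on simulated data with known changes. Ratios, TPM shares and correlations are descriptions over mice, and correlations use log2 CPM with a prior count of 2, centred within each genotype. Promoter matches and summaries used Python 3.11.15 with pandas 2.3.3.

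The 10 genes, the lists and the tests were chosen with earlier results of these data known. Named are all 10 genes, further machinery genes with an unadjusted p under 0.05 and the next 4 by p, 5 fibrillar collagens, and up to 3 genes of each other list with the smallest p. *P4hb*, *Ppib*, *P3h1*, *Plod3*, *Pdgfra* and *Fos* were added to this rule once their values were known. The p-values set the difference between the genotypes against the spread between mice of a group, which edgeR estimates with information from all genes. Each group holds the replicate numbers 1 to 4, which name different mice.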

Additional observations from a re-analysis of the deposited data

How the results depend on the processing

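The log2 fold changes of *Serpinh1* (0.47 to 0.64), *Pcolce* (0.49 to 0.86), *Loxl1*, *Bmp1*, *Loxl2* and *Plod2* stayed positive in all 16 alternatives: RLE size factors, limma-voom without and with sample quality weights, DESeq2, 2 other filters, the replicate block, each mouse left out, and the 5 mice with low *Fos*. *Serpinh1* and *Pcolce* had an unadjusted p of at most 0.0086 in each of them. Their adjusted p was lowest with DESeq2, at 0.0767 and 0.0728, and reached 0.9996 without C2-/- Old replicate 4, so none of the 10 passed an adjusted p of 0.05 in any alternative. DESeq2 gave 39 genes of all tested with an adjusted p under 0.05, where edgeR gave 4.

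The direction turned for 4 of the 10 genes. *P4ha1* ranged from -0.027 to 0.23 and *Plod1* from -0.025 to 0.094 when each mouse was left out. *P4ha2* ranged from -0.072 to 0.11, and was 0.0016 with at least 10 counts in every mouse and 0.0013 among the 5 mice with low *Fos*. *Lox* ranged from -0.59 to 0.11, and was 0.024 with sample quality weights and 0.066 among the 5 mice with low *Fos*. The cause was not tested. The number of the 10 genes that were higher at an unadjusted p under 0.05, 4 in edgeR, ranged from 2 to 4 when each mouse was left out, with 2 without C2-/- Old replicates 1 or 4. For the further machinery genes it ranged from 2 to 8 (6 with all mice) and was 1 among the 5 mice with low *Fos*. The r between same-numbered mice ran from -0.05 to 0.27, with 1 of 4 over 0.1, that of replicate 1. Between mice of different numbers, r reached 0.20. With the replicate block 3 of the 10 genes were higher at that threshold, while *Loxl1*, with 0.0547 for its unadjusted p in edgeR, was not. With 4 mice a group, differences as small as those of the hydroxylase genes could not be shown, and *Plod2* had only 20 to 47 counts per mouse.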

Other observations

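The 10 genes did not vary as a block between mice of the same genotype. Over the 8 mice, with values centred within genotype, the 45 pairs among the 10 had a median Pearson r of 0.09, and 24 of them were positive. The extremes were *Lox* with *Bmp1* (r = -0.95, Spearman's rho = -0.93) and *Loxl2* with *Pcolce* (r = 0.83, rho = 0.64). Without the 2 mice farthest from the median of the second gene, these became -0.76 and 0.29, so the second rests on those mice. All points share the library, its depth and the cell makeup of the muscle, and the correlations are descriptions of 8 mice.

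*Pcolce* and *Loxl2* were high in the mice with much collagen RNA (with *Col3a1*, r = 0.80 and 0.77, rho = 0.62 and 0.69). Without the 2 most distant mice, r was 0.16 for *Pcolce* and 0.07 for *Loxl2*, so both rest on those mice. *Pcolce* followed *Pdgfra*, a receptor that marks fibroblasts and their progenitors, with r = 0.85 and rho = 0.95 over the 8 mice. Without the 2 most distant mice r was 0.86. With *Dcn*, a marker of the same list, *Pcolce* had an r of only 0.23 (rho = 0.43), and of 0.22 without the 2 most distant mice. So *Pcolce* did not follow the fibroblast markers in general. *Serpinh1*, the other gene without overlap between the groups, had an r of -0.15 with *Col3a1* (rho = 0.05) and of 0.43 with *Pdgfra* (rho = 0.31). Without the 2 most distant mice these became 0.26 and -0.01, so neither holds.

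Over the 8 mice, *P4ha2* was the gene of the 10 that ran most against *Fos* (r = -0.94, rho = -0.74). Without the 2 mice farthest from the median of *Fos*, its r was -0.77. It was then no longer first, since *Pcolce* (r = -0.89), *Loxl2* (-0.88) and *Bmp1* (-0.86) were more negative. In WT Old, the 2 mice with high *Fos* had 22.6 and 21.1 CPM of *P4ha2* and the other 2 had 26.4 and 24.7 CPM. In C2-/- Old, the mouse with high *Fos* had 17.6 CPM and the other 3 had 23.6 to 26.5 CPM. *Pcolce* and *Loxl2* were likewise lower in the 3 mice with high *Fos* than in the others of their genotype.

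The genes whose pattern over the 8 mice was most like the mean of the 10 were *Mrpl49* (r = 0.98), *Pfkfb2*, *Narf*, *Pisd*, *Msl3l2*, *Ap5b1*, *Pih1d1* and *G0s2* (r = 0.94). None of them belongs to a list of collagen genes used here, and they were picked as the highest among all tested genes.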
